A study of Mus musculus with 6 samples.

Results

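The IGHV2 genes, also called the Q52 family, are variable (V) gene segments of the mouse immunoglobulin heavy chain. Clonotypes, that is, distinct CDR3 sequences with their V, D and J gene hits, were counted as IGHV2 when the gene with the best V alignment score had a name starting with IGHV2-. Where scores tied, the gene listed first was taken. By this rule 9 of the 105 IGHV genes found were IGHV2 genes, and they took 648 of 7794 heavy chain (IgH) clonotypes in the one library and 158 of 6781 in the other. The 6 genes with the most clonotypes were IGHV2-2, IGHV2-3, IGHV2-4, IGHV2-5, IGHV2-6 and IGHV2-9-1, and IGHV2-6-8, IGHV2-7 and IGHV2-9 made up the rest.

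The study asked whether B cells regenerated from pluripotent stem cells carry a broad receptor repertoire. The iR9X2 embryonic stem cells, which carried a GFP transgene on a C57BL/6 background, held a doxycycline-inducible cassette of Runx1, Hoxa9 and Lhx2 in the Rosa26 locus. They were differentiated into induced hematopoietic progenitor cells, which were injected into μMT mice (B6.129S2-Ighmtm1Cgn/J) of 8 to 10 weeks of age after a sublethal irradiation of 5 Gy. The μMT mouse carries a disrupted IgM heavy chain gene and makes no mature B cells of its own, and the recipients drank water with 1 mg/ml doxycycline. At week 4, naïve follicular (FO) B cells were taken by sorting from 1 such iB-μMT spleen, and likewise from 1 wild-type C57BL/6 (B6) mouse whose age is not given in the sources used here. The stem cells and the B6 mouse shared the C57BL/6 background, but the libraries differed in the origin of the B cells, transplantation, irradiation, doxycycline and time since B cell production began, and these cannot be told apart. The RNA was amplified from the 5′ end (5′ RACE) and sequenced on a MiSeq. The IgH libraries held 909806 reads (iB-μMT) and 1383617 reads (B6), with a median of 96 and 184 reads per clonotype. As there was 1 library per group, there is no replicate check. Every test below compares these libraries, not the conditions, and every 95% interval covers counting error only. No molecular identifiers are described, so reads do not count molecules, and clonotypes were the unit of counting.

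A heavy chain gene is made when a developing B cell joins a D segment to a J segment and then a V segment to the DJ product. The enzyme TdT adds nucleotides that no gene encodes at the joints, and nibbling removes bases from the ends. The IGHV2 genes lie in the D-proximal end of the locus, interleaved with the IGHV5 genes, whereas the large IGHV1 family fills the distal end. The D-proximal V genes are known to be used often in the fetal and neonatal repertoire, and pro-B cells, in which the heavy chain is joined, need contraction of the locus to reach the distal V genes.

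The members can be told apart in CDR3 only by the bases that the V segment adds after its conserved cysteine codon. These CDR3 starts are shown because the assignment of closely related members turns on them. Each is the start most often seen in clonotypes whose V end was reported as untrimmed, and capitals mark the bases that differ between the members.
IGHV2-2: tgtgccaGAAA
IGHV2-3: tgtgccaAACC
IGHV2-4: tgtgccaAAAA
IGHV2-5: tgtgccaAAAA
IGHV2-6: tgtgccaGA
IGHV2-9-1: tgtgccaGAAA
IGHV2-6-8: tgtgccaGTGA
IGHV2-9: tgtgccaAAC
Between 186 clonotypes (IGHV2-2) and 3 clonotypes (IGHV2-6-8) held these exact bases. No untrimmed clonotype gave a start for IGHV2-7. The members IGHV2-2 and IGHV2-9-1 shared 1 start, and IGHV2-4 and IGHV2-5 shared another.

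On chromosome 12 of GRCm38.p6 (mm10), the RefSeq table lists 11 IGHV2 entries, 9 V segments and 2 pseudogenes. All 9 V segments were found as a best V hit. The pseudogenes IGHV2-1 and IGHV2-8 were the best hit of 0 clonotypes in either library, which allows a share of up to 0.0385% in the iB-μMT library and 0.0442% in the B6 library. From the D segments outward, the members lay at chr12:113588267-113588700 (IGHV2-2), chr12:113611184-113611476 (IGHV2-3), chr12:113653291-113653583 (IGHV2-4), chr12:113685482-113685774 (IGHV2-5), chr12:113716672-113716962 (IGHV2-6), chr12:113769857-113770142 (IGHV2-9-1), chr12:113796138-113796430 (IGHV2-6-8), chr12:113807314-113807747 (IGHV2-7) and chr12:113879097-113879388 (IGHV2-9). The nearest member, IGHV2-2, lay 62.9 kb from the nearest D segment, and the farthest, IGHV2-9, lay 354 kb from it. The table annotates each span as a V segment and gives no exons or UTRs.

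In the iB-μMT library, 8.31% (95% Wilson interval 7.72 to 8.95) of clonotypes used an IGHV2 gene, and in the B6 library 2.33% (2.00 to 2.72) did. The ratio of the shares was 3.57 (95% interval 3.01 to 4.23), the highest among the 13 families with at least 20 clonotypes. The interleaved IGHV5 family came next with 31.6% and 12.8%, a ratio of 2.47 (2.30 to 2.65), and its interval did not overlap that of IGHV2. IGHV3 (ratio 1.41) and IGHV14 (1.13, 0.960 to 1.33), from the middle of the locus, were nearer to 1. The IGHV1 family lay on the other side with 29.8% and 59.3%, a ratio of 0.502. By reads, IGHV2 held 11.5% in the iB-μMT library and 3.13% in the B6 library, a ratio of 3.69. This was not the highest ratio by reads, as IGHV13, with 37 and 17 clonotypes, had 4.73. The clonotype ratio of IGHV13 was 1.89 (1.07 to 3.36), with an interval that overlapped that of IGHV2. In such bulk RNA, more cells of a clonotype and more transcript per cell cannot be told apart.

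Shares sum to 100%, so a lower IGHV1 share raises all others. Among the clonotypes outside IGHV1, IGHV2 took 648 of 5472 (11.8%, 11.0 to 12.7) in the iB-μMT library and 158 of 2758 (5.73%, 4.92 to 6.66) in the B6 library. The ratio on this scale was 2.07 (1.75 to 2.44), lower than over all clonotypes and still above that of IGHV5, which was 1.43.

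The members did not share 1 ratio. IGHV2-2 was the most abundant member in both libraries, with 327 clonotypes (4.20%) in the iB-μMT library and 53 clonotypes (0.782%) in the B6 library. Its ratio of shares was 5.37 (4.02 to 7.16; Fisher's exact test, two-sided, adjusted p = 5.93e-41). IGHV2-3 followed with 94 clonotypes (1.21%) and 18 clonotypes (0.265%), a ratio of 4.54 (2.75 to 7.52; Fisher's exact test, adjusted p = 7.19e-11). Of the members, these genes lie nearest to the D segments.

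**Figure D1:**
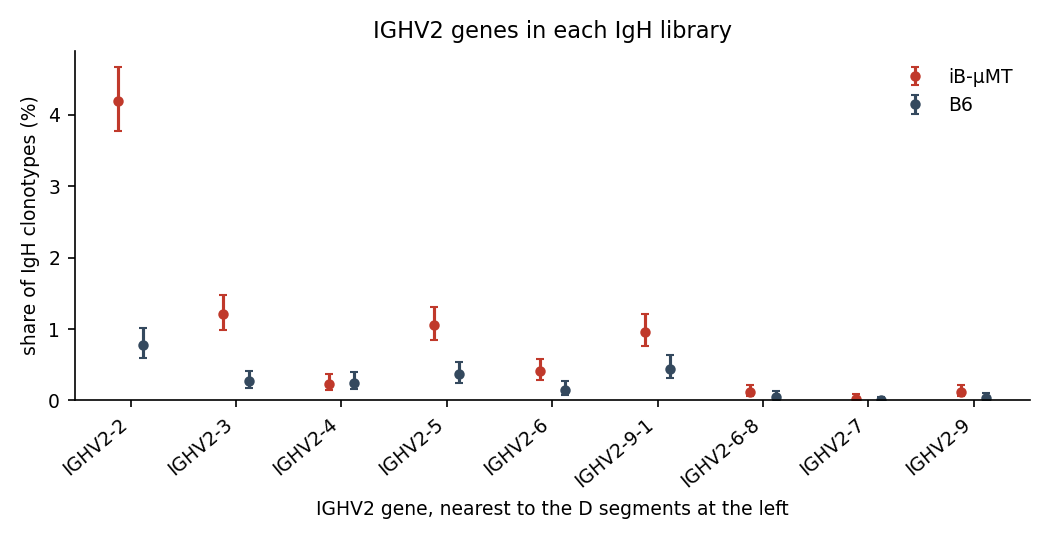
The share of IgH clonotypes (%) is plotted for each IGHV2 gene in the iB-μMT library (red) and the B6 library (dark), in order from the D segments, with 95% Wilson intervals (for the share of 0, a bar up to 3 clonotypes). IGHV2-2 stands at 4.20% against 0.782%, and IGHV2-4 is the one of the 6 main members whose shares lie side by side (0.231% and 0.251%).

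The members farther from the D segments had smaller ratios. IGHV2-5 had 82 clonotypes (1.05%) in the iB-μMT library and 25 clonotypes (0.369%) in the B6 library, a ratio of 2.85 (1.83 to 4.46; Fisher's exact test, adjusted p = 2.96e-06). IGHV2-6 had 32 clonotypes (0.411%) and 10 clonotypes (0.147%), a ratio of 2.78 (1.37 to 5.66; Fisher's exact test, adjusted p = 0.00563). IGHV2-9-1 had 75 clonotypes (0.962%) and 30 clonotypes (0.442%), a ratio of 2.18 (1.43 to 3.32; Fisher's exact test, adjusted p = 0.000568). With IGHV2-4 left aside, the interval of each of these 3 genes overlapped that of its neighbours in this order. However, the interval of IGHV2-9-1 lay below that of IGHV2-2.

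IGHV2-4, which lies between IGHV2-3 and IGHV2-5, stood apart. It was the best hit of 18 clonotypes (0.231%) in the iB-μMT library and 17 clonotypes (0.251%) in the B6 library, a ratio of 0.921 (0.475 to 1.79; Fisher's exact test, adjusted p = 0.926). Among the tested members, its interval overlapped those of IGHV2-6 and IGHV2-9-1 but not those of IGHV2-2, IGHV2-3 and IGHV2-5. The last 3 members were too rare to be tested. IGHV2-6-8 had 9 clonotypes and 3 clonotypes (ratio 2.61, 0.707 to 9.64), and IGHV2-9 had 9 clonotypes and 2 clonotypes (ratio 3.92, 0.846 to 18.1). IGHV2-7 had 2 clonotypes in the iB-μMT library and 0 of 6781 in the B6 library, which allows up to 0.0442%, and no ratio is given.

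Of the 9 members, 6 had the minimum of 20 clonotypes in the 2 libraries together. The shares of 5 of these 6 were higher in the iB-μMT library at an adjusted p under 0.05, where 26.0% of the 77 tested IGHV genes were, and 0 of 6 were lower, where 36.4% of the tested genes were. By size alone, 5 of 6 had a ratio of at least 2 (16.9% of the tested genes) and 0 of 6 had a ratio of at most 0.5 (22.1%). The median log2 ratio was 1.50 over the 6 members and -0.12 over the 77 genes. Of the interleaved IGHV5 genes, 7 of 9 tested were higher and 0 lower, with ratios from 1.02 to 6.28. The 3 genes outside the family whose log2 ratio was closest to that of the whole family (1.84) were IGHV5-6 (1.82), IGHV5-4 (1.90) and IGHV5-12 (2.00), each compared over these 2 libraries only.

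**Figure D2:**
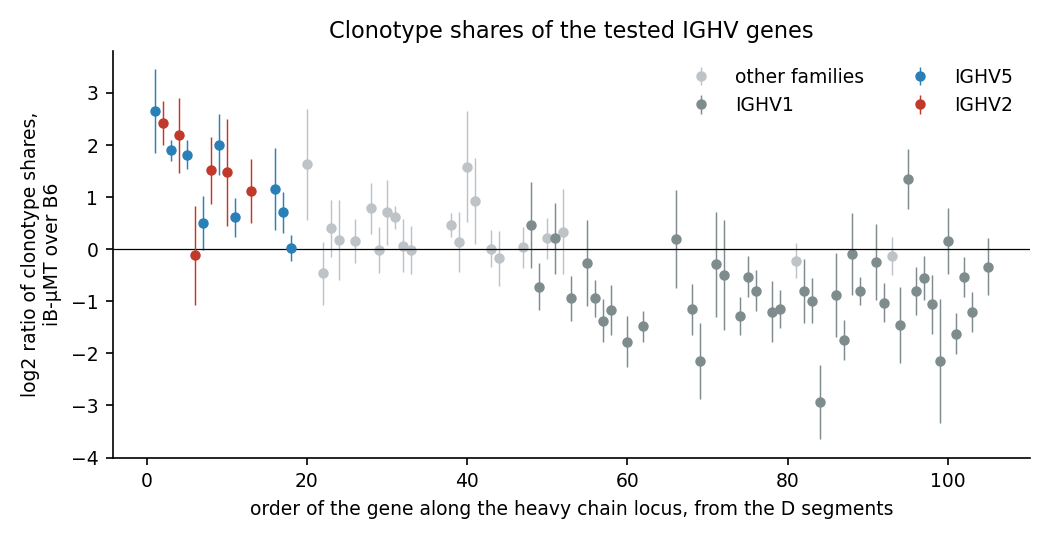
The log2 ratio of clonotype shares, iB-μMT over B6, is plotted for the 77 tested IGHV genes against their order along the locus from the D segments, with 95% intervals. The IGHV2 genes (red) and IGHV5 genes (blue) share the left end, where 5 of 6 IGHV2 genes lie above 1, and IGHV2-4 lies at -0.12.

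With IGHV1 clonotypes left out of both libraries, the calls of the members fell from 5 to 2 of 6, where 16.2% of the 37 genes tested on this scale were higher. IGHV2-2 (log2 ratio 1.64; Fisher's exact test, adjusted p = 1.94e-17) and IGHV2-3 (1.40, adjusted p = 0.000167) passed the threshold. In the same exact test, IGHV2-5 (0.73, adjusted p = 0.0526), IGHV2-6 (0.69, adjusted p = 0.257), IGHV2-9-1 (0.33, adjusted p = 0.358) and IGHV2-4 (-0.91, adjusted p = 0.121) did not. The higher share of the 2 members nearest to the D segments was therefore also seen relative to the other non-IGHV1 clonotypes.

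Within the family, IGHV2-2 made up a larger part in the iB-μMT library. It took 50.5% (46.6 to 54.3) of IGHV2 clonotypes in the iB-μMT library and 33.5% (26.7 to 41.2) in the B6 library. IGHV2-4 took 2.78% (1.76 to 4.35) and 10.8% (6.83 to 16.6), and IGHV2-9-1 took 11.6% and 19.0%. IGHV2-3 (14.5% and 11.4%), IGHV2-5 (12.7% and 15.8%) and IGHV2-6 (4.94% and 6.33%) differed less.

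The value of IGHV2-4 depended on how a clonotype was assigned to a member. A second V hit was listed for 435 of 648 IGHV2 clonotypes (67.1%) in the iB-μMT library and 98 of 158 (62.0%) in the B6 library. Only 1 clonotype, in the iB-μMT library, listed a gene outside the family. Another gene among IGHV2-2, IGHV2-4 and IGHV2-5 was listed for 97.9%, 88.9% and 98.8% of their clonotypes in the iB-μMT library and 98.1%, 100% and 96% in the B6 library, in this order. The lead of the best alignment score over the next gene's score was smaller in the B6 library for all 3 genes. Its median was 70.9 and 31.9 score points for IGHV2-2, 83.3 and 43.5 for IGHV2-5, and 72.6 and 10.5 for IGHV2-4, in the iB-μMT library and the B6 library, respectively. A lead under 20 was found for 4 of 18 IGHV2-4 clonotypes in the iB-μMT library and 13 of 17 in the B6 library. All 4 in the iB-μMT library were ties with a lead of 0, whereas the smallest lead in the B6 library was 0.6. With unique best V hits only, the log2 ratio of IGHV2-4 was -0.48 in place of -0.12.

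**Figure D3:**
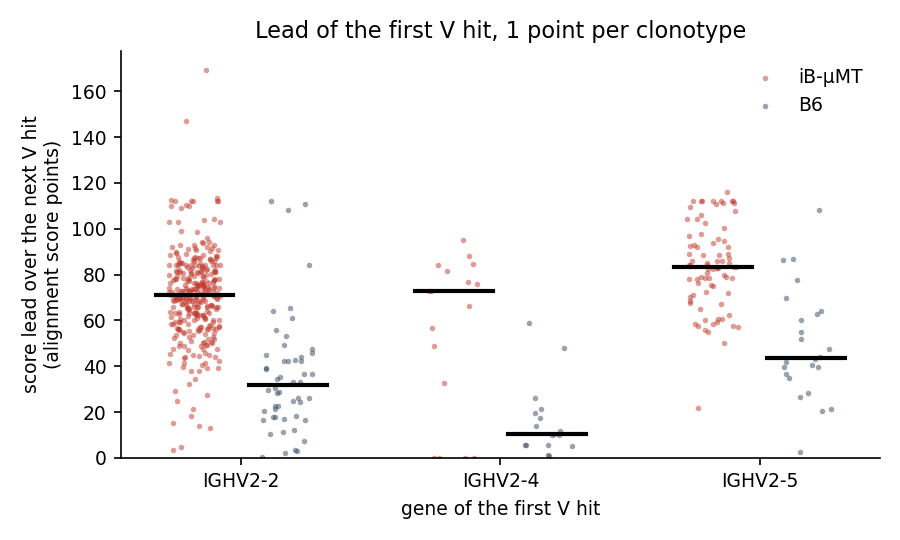
The lead of the best V alignment score over the next listed gene (score points) is plotted for each clonotype of IGHV2-2, IGHV2-4 and IGHV2-5 in the iB-μMT library (red) and the B6 library (dark), with medians as black lines. The IGHV2-4 clonotypes of the B6 library have a median of 10.5, the lowest of the 6 sets.

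The CDR3 starts were also compared, without the score. The third codon of CDR3 is AGA in the start of IGHV2-2 and AAA in that of IGHV2-4 (arginine and lysine codons). In the iB-μMT mouse, 13 of 18 IGHV2-4 clonotypes had AAA and 2 had AGA. In the B6 mouse, 6 of 17 had AAA and 8 had AGA. The bases AG at positions 7 and 8 of CDR3 (counted from 1 at its 5′ end), which belong to the IGHV2-2 start, were found in 9 of the 17, and all 9 had IGHV2-2 as the next hit with a lead of 0.6 to 26.1. By comparison, AGA stood in 276 of 327 (iB-μMT) and 43 of 53 (B6) IGHV2-2 clonotypes, and AAA in 64 of 82 and 20 of 25 IGHV2-5 clonotypes. When each IGHV2 clonotype was assigned by its alignment within CDR3 instead, IGHV2-4 had 19 clonotypes and 8 clonotypes, a ratio of 2.07 (0.905 to 4.72; Fisher's exact test, adjusted p = 0.127; 0.121 to 0.937 over the alternatives in which it was tested). With only clonotypes whose score lead was at least 20, IGHV2-4 had 14 clonotypes and 4 clonotypes, too few to be tested. For IGHV2-2, the CDR3 alignment gave 328 and 62 clonotypes, a ratio of 4.60. The score lead of at least 20 left it 321 and 39 clonotypes, a log2 ratio of 2.82. The ratio of IGHV2-4 changed its direction between the best hit and the CDR3 alignment and passed the threshold under neither. That alignment reads the same bases as the counts of the CDR3 starts, so it is not an independent check. IGHV2-4 and IGHV2-5 share a start, which alone cannot separate these genes. Under both assignments, 5 of 6 members were higher. By CDR3 alignment, 24.4% of the 78 tested genes were higher.

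The J genes joined to IGHV2 differed from those of all other clonotypes, and in the same direction in both libraries. IGHJ4, the J segment farthest from the D segments, was joined to 44.6% (40.8 to 48.4) of IGHV2 clonotypes and 28.3% of the others in the iB-μMT library. The difference was 16.3 percentage points (12.4 to 20.3; Fisher's exact test, two-sided, adjusted over 8 tests, p = 4.04e-16). In the B6 mouse the shares were 50.6% (42.9 to 58.3) and 26.5%, a difference of 24.1 points (16.3 to 31.9; Fisher's exact test, adjusted p = 6.94e-10). IGHJ2 was lower. It was joined to 20.7% of IGHV2 clonotypes and 34.4% of the others in the iB-μMT library (Fisher's exact test, adjusted p = 7.53e-13), and to 17.7% and 33.1% in the B6 library (adjusted p = 4.61e-05). IGHJ3 passed the threshold of Fisher's exact test in neither library (21.9% and 22.9%, and 21.5% and 23.8%, both adjusted p = 0.591). IGHJ1 passed the exact test in the B6 library (10.1% and 16.6%, adjusted p = 0.0472) and not in the iB-μMT library (12.8% and 14.4%, adjusted p = 0.388). That call was lost under 3 of the 6 tested alternatives, those with at least 2 reads, at least 5 reads or near-identical clonotypes merged (Fisher's exact test, adjusted p from 0.0469 to 0.0923 over the 6).

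**Figure D4:**
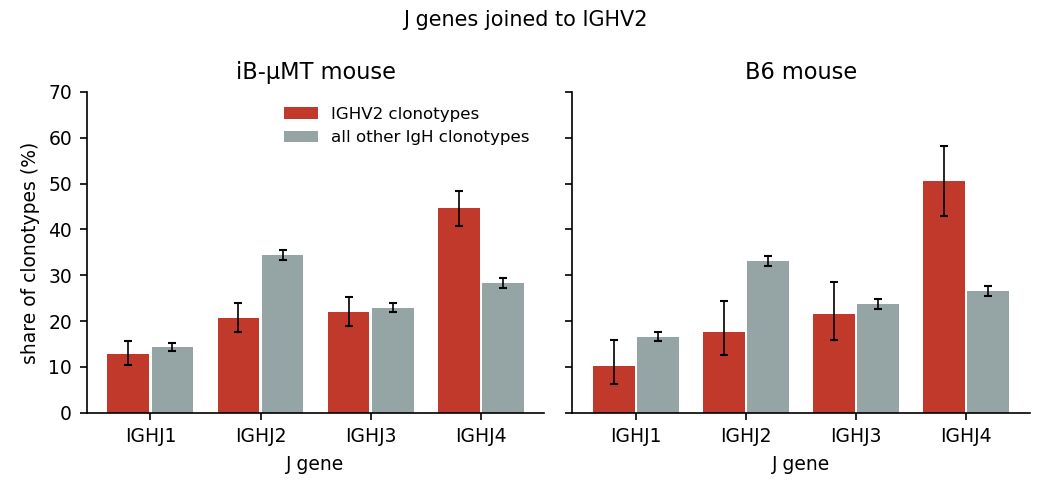
Bars show the share (%) of IGHV2 clonotypes (red) and of all other IgH clonotypes (grey) joined to each J gene, in the iB-μMT library (left) and the B6 library (right), with 95% Wilson intervals. IGHJ4 is the J gene whose share is higher for IGHV2 in both panels, 44.6% and 50.6%.

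The IGHJ4 share of IGHV2 was the highest of the 13 families in both libraries, above IGHV7 (40.6%) in the iB-μMT library and IGHV10 (36.3%) in the B6 library. IGHV7 had only 106 clonotypes in the iB-μMT library, and no interval was computed for the other families. By member, it was 47.7% (iB-μMT) and 49.1% (B6) for IGHV2-2, 34.0% and 44.4% for IGHV2-3, 61.1% and 35.3% for IGHV2-4, 43.9% and 60% for IGHV2-5, 62.5% and 70% for IGHV2-6, and 34.7% and 56.7% for IGHV2-9-1. Each of these 12 values lay above the share of the other clonotypes in the same library, but 4 of their 95% Wilson intervals included it, those of IGHV2-3 in the iB-μMT library (25.3 to 44.1) and the B6 library (24.6 to 66.3), IGHV2-9-1 in the iB-μMT library (24.9 to 45.9) and IGHV2-4 in the B6 library (17.3 to 58.7). Of the rare members, IGHV2-6-8 had IGHJ4 in 2 of 9 and 1 of 3 clonotypes, IGHV2-7 in 1 of 2 in the iB-μMT library, and IGHV2-9 in 5 of 9 and 0 of 2. Among genes with at least 20 clonotypes, 5 of 5 members in the iB-μMT library and 3 of 3 in the B6 library were above that share, as were 37 of 66 other IGHV genes (56.1%) and 31 of 62 (50%), respectively. In the iB-μMT library these members ran from 34.0% to 62.5% and the other genes from 9.52% to 52.2%, so the ranges overlapped. In the B6 library the members ran from 49.1% to 60% and the other genes from 6.67% to 45.2%.

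Among the D gene families, the interval of IGHV2 lay below that of the other clonotypes for IGHD3 in both libraries and above it for IGHD4 in the B6 library. IGHD2 was found in 49.9% of IGHV2 clonotypes with a D gene and 50.2% of the others in the iB-μMT library, and in 50% (41.9 to 58.1) and 44.0% in the B6 library. IGHD1 took 22.4% and 22.2% in the iB-μMT library, and 27.5% (20.8 to 35.3) and 34.3% in the B6 library. IGHD4 took 21.4% (18.2 to 25.0) and 18.5% in the iB-μMT library, and 15.5% (10.5 to 22.3) and 9.63% (8.90 to 10.4) in the B6 library. IGHD3 took 3.41% (2.19 to 5.27) and 6.07% (5.50 to 6.69) in the iB-μMT library. In the B6 library it took 4 of 142 IGHV2 clonotypes (2.82%, 1.10 to 7.02) and 7.68% (7.02 to 8.40) of the others, so these bounds nearly touch. No test was made for the D genes, and 91 of 648 (iB-μMT) and 16 of 158 (B6) IGHV2 clonotypes had no D gene.

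At the joints, IGHV2 clonotypes of the iB-μMT library carried fewer inserted nucleotides. The clonotypes below are examples of such joints, chosen by read count and not as evidence for the difference. They are, for each library, the 2 IGHV2 clonotypes with the most reads and the one with the most reads among those without an inserted nucleotide, with the inserted nucleotides in capitals.
iB-μMT, IGHV2-2 with IGHD1-1 and IGHJ4: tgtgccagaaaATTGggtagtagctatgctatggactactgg
iB-μMT, IGHV2-5 with IGHD1-1 and IGHJ4: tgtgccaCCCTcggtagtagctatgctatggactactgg
iB-μMT, no insertion, IGHV2-2 with IGHD1-1 and IGHJ1: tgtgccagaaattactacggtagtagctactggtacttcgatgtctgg
B6, IGHV2-5 with IGHD4-1 and IGHJ3: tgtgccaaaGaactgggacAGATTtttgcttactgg
B6, IGHV2-2 with IGHD2-4 and IGHJ3: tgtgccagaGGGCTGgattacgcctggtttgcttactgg
B6, no insertion, IGHV2-2 with IGHD2-3 and IGHJ3: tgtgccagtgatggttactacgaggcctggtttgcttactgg
These clonotypes had 769, 613 and 571 reads in the iB-μMT library and 671, 630 and 555 reads in the B6 library, in the order shown.

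Over the IGHV2 clonotypes with a D gene, the mean number of inserted nucleotides was 3.85 (SD 2.95, n = 557 clonotypes) in the iB-μMT library and 6.04 (SD 3.46, n = 142 clonotypes) in the B6 library. The difference was -2.19 (-2.81 to -1.57), and that of all other clonotypes was -2.01 (-2.14 to -1.88), so the intervals overlapped. Most of the difference lay at the D-J joint, with 1.08 and 2.61 nucleotides (difference -1.52, -1.95 to -1.09), as against 2.76 and 3.44 at the V-D joint (-0.67, -1.13 to -0.211). All other clonotypes also differed more at the D-J joint (-1.14, -1.22 to -1.06) than at the V-D joint (-0.868, -0.968 to -0.768). The mean was lower in the iB-μMT library for each of the 6 main members, from 2.85 and 5.94 nucleotides for IGHV2-4 to 4.54 and 8 for IGHV2-6. IGHV2-6 has the shortest CDR3 start shown, and whether this raised its number of inserted nucleotides was not tested. IGHV2-2 had 4.15 and 6.47.

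**Figure D5:**
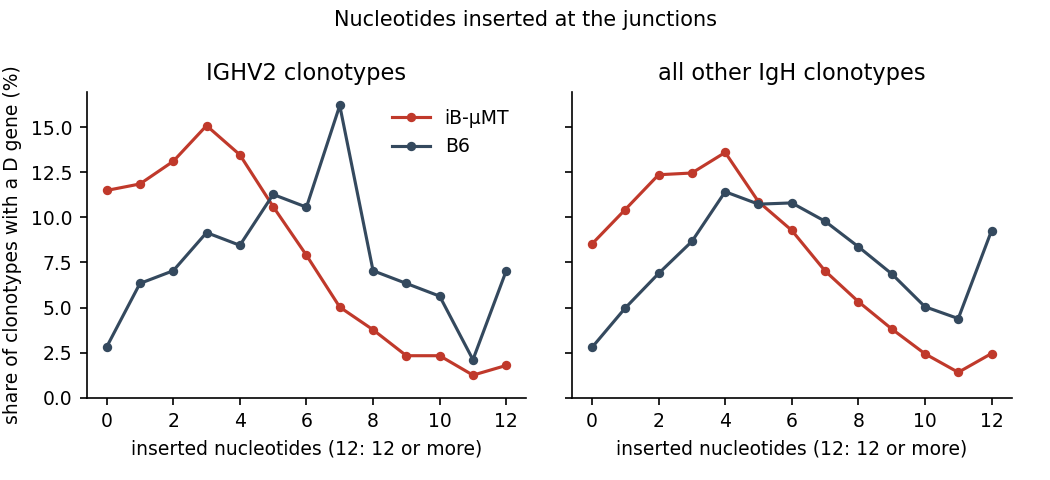
The share (%) of clonotypes with a D gene is plotted against the number of inserted nucleotides, for IGHV2 (left) and all other IgH clonotypes (right), in the iB-μMT library (red) and the B6 library (dark). Clonotypes without an inserted nucleotide make up 11.5% and 2.82% at the left, and 8.52% and 2.79% at the right.

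No inserted nucleotide at either joint was found in 64 of 557 IGHV2 clonotypes (11.5%, 9.10 to 14.4) of the iB-μMT library and 4 of 142 (2.82%, 1.10 to 7.02) of the B6 library. The difference of 8.67 percentage points (3.84 to 12.1) passed Fisher's exact test (two-sided, p = 0.000798). In all other clonotypes the shares were 8.52% and 2.79% (Fisher's exact test, p = 1.51e-43). The ratio of the odds ratios, IGHV2 over other, was 1.38 in a logistic model with an interaction term, with an interval (0.486 to 3.92) that includes 1, so a difference between IGHV2 and the other clonotypes in this respect was not detectable at this depth. Within the iB-μMT library, IGHV2 clonotypes had 0.513 fewer inserted nucleotides than the others (interval of IGHV2 minus other -0.769 to -0.256), and in the B6 library the difference was -0.329 (-0.906 to 0.248).

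The CDR3 of IGHV2 clonotypes was 13.99 amino acids long on average (SD 2.23) in the iB-μMT library and 14.28 (SD 2.57) in the B6 library, a difference of -0.292 (-0.729 to 0.144) that does not exclude 0. In the iB-μMT library it was longer than that of the other clonotypes by 0.426 amino acids (0.245 to 0.606), and in the B6 library by 0.332 (-0.0748 to 0.738). Among clonotypes with IGHJ4, which encodes a long CDR3 end, the difference was 0.0232 (-0.240 to 0.286) in the iB-μMT library and -0.175 (-0.797 to 0.448) in the B6 library. Among those with IGHJ2 it was 0.485 (0.119 to 0.850) and 0.988 (0.246 to 1.73). With IGHJ1 (-0.289, -0.728 to 0.150, and 0.430, -0.765 to 1.63) and IGHJ3 (0.176, -0.190 to 0.543, and -0.501, -1.18 to 0.174) the intervals included 0.

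All IGHV2 clonotypes with a constant gene hit, 630 in the iB-μMT library and 156 in the B6 library, were joined to IGHM, the constant gene of IgM. None had an IGHG, IGHA or IGHE hit, the constant genes of class-switched cells, and IGHD, which the sorted cells carry on the surface, was no hit in either library. The sources call the heavy chain libraries IgG and do not give the primers, and a 5′ RACE library shows only the constant genes that its primer reaches, so the absence of other constant genes cannot be read as their absence from the cells. A CDR3 without a stop codon was found in 99.2% and 98.7% of IGHV2 clonotypes.

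The share of reads was not carried by a few large clonotypes. The IGHV2 clonotype with the most reads held 0.0845% of IgH reads in the iB-μMT library and 0.0485% in the B6 library. The median was 149 reads per IGHV2 clonotype (quartiles 90 and 219) and 92 per other clonotype in the iB-μMT library, and 277.5 and 182 in the B6 library. IGHV5 clonotypes had a median of 62 and 88 reads, so the reads per clonotype differed between these interleaved families in both libraries.

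Only 1 IGHV2 clonotype had the same CDR3, V gene and J gene in both libraries, 1 of 34 such IgH clonotypes. It is shown with its inserted nucleotides in capitals.
IGHV2-9 with IGHD2-4 and IGHJ3: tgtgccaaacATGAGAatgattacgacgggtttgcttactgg
It had 321 reads in the iB-μMT library and 1 read in the B6 library.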

How the data were processed

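IgH libraries of naïve FO B cells from 1 iB-μMT mouse and 1 B6 mouse were used, and the light chain libraries were not used here. The authors assembled clonotypes with MiXCR (version 3.0.13) after bcl2fastq. Their tables list clonotypes with the deposited read count, the fraction of the library's reads that it makes up, a quality score for CDR3, the CDR3 sequence and the gene hits with alignment scores. The deposited fraction and quality score were not analysed further. A low read count or a misassigned V hit changes how many clonotypes a gene has, and PCR favours some clonotypes in reads, so each clonotype was counted once.

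The depth was 7794 and 6781 clonotypes, at which 3 clonotypes correspond to 0.0385% and 0.0442%. Each IGHV gene that reached 20 clonotypes over both libraries was tested by Fisher's exact test (two-sided), with p adjusted over 77 genes by the Benjamini-Hochberg method and called under 0.05. Shares have 95% Wilson intervals, ratios log (Katz) intervals, differences of shares Newcombe intervals, and differences of means normal intervals. Inserted nucleotides are those between the V, D and J ends given by MiXCR. All 105 IGHV gene names matched the RefSeq table of GRCm38.p6, the build that the submitters' processing notes call mm10. Every IGHV2 gene found was named, the 6 main ones in full, with the 3 other genes of the closest log2 ratio. These members, and the tests, were chosen with earlier results of these data known.

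The alternatives are given in the closing section, and 3 of them were chosen after seeing the data. On simulated clonotypes, 79 genes were tested, all 20 genes changed by a factor of 3 were recovered, and 0 of 81 unchanged genes were called. The changed genes were drawn from those with at least 30 clonotypes in the B6 library. Among the main members only IGHV2-2 and IGHV2-9-1 reach this number, so the simulation does not show how well changes in the rarer members are recovered. Python 3.11.15, NumPy 2.4.6, SciPy 1.17.1, pandas 2.3.3, statsmodels 0.14.6 and matplotlib 3.10.9 were used.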

Additional observations from a re-analysis of the deposited data

How the results depend on the processing

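The results were recomputed with at least 2 or 5 reads per clonotype, without clonotypes found in both libraries, and with near-identical clonotypes merged. Others took only clonotypes without a stop codon in CDR3, or only unique best V hits. Further ones used all V genes, reads in place of clonotypes, or at least 8 nucleotides of D. Leaving out IGHV1, a V score lead of at least 20 and the V gene by CDR3 alignment were chosen after seeing the data. Without IGHV1, the family ratio fell to 2.07, and 2 members were higher and 2 had a ratio of at least 2, both in place of 5. With at least 8 nucleotides of D, the ratio of odds ratios was 0.998 in place of 1.38. By CDR3 alignment, the log2 ratio of IGHV2-4 was 1.05 in place of -0.12. The family ratio reached 4.20 with a score lead of at least 20. That filter removed 12 of 648 IGHV2 clonotypes in the iB-μMT library and 28 of 158 in the B6 library, so it acted unequally on the libraries. Elsewhere the IGHJ4 difference ran from 16.1 to 17.6 points (iB-μMT) and 23.6 to 26.0 (B6). The difference in inserted nucleotides ran from -2.37 to -1.73, and all of these were in the direction reported. No paired analysis was possible because each group has 1 library. The 158 IGHV2 clonotypes of the B6 mouse limit the precision of all comparisons.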

Other observations

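The V ends of IGHV2 clonotypes were intact in 49.1% (45.2 to 52.9) of clonotypes in the iB-μMT mouse and 39.9% (32.6 to 47.7) in the B6 mouse, with a mean loss of 1.11 and 1.51 bases. The members differed among themselves. IGHV2-6, whose CDR3 start is the shortest of those shown, was intact in 93.8% and 90% of its clonotypes, whereas IGHV2-3 was intact in 22.3% and 11.1%. These 2 values are not directly comparable, because the start has 9 bases for IGHV2-6 and 11 for IGHV2-3. Loss of bases beyond the end of the shorter start could not be scored. IGHV2-2 was intact in 51.7% and 50.9%, and IGHV2-9-1, which has the same start, in 61.3% and 36.7%.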
